A study of Mus musculus with 6 samples.

Results

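The Sprouty genes Spry1, Spry2 and Spry4, the SPRED genes Spred1, Spred2 and Spred3 and the PEA3 genes Etv1, Etv4 and Etv5 were followed in cultured mouse melanoma cells exposed to fenofibrate. These 9 genes were taken by symbol from a table of 54838 genes, and each symbol matched 1 gene. The design compared 3 libraries of cells given fenofibrate at 50 µM with 3 control libraries, described as biological triplicates. Fenofibrate is a lipid-lowering drug whose acid form activates the nuclear receptor PPARα. What the control cells received and how long the treatment lasted are not given in the sources used here. The line is named as B16F10, a metastatic derivative of the B16 mouse melanoma, but the cell line field of the samples counts up from B16F10 to B16F15 over the libraries. If that field is meant literally, line and treatment cannot be told apart. The labels do not say whether the triplicates are separate cultures, so p-values may measure technical spread between these libraries only.

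Growth factor receptors activate RAS, which passes the signal through RAF and MEK to the kinase ERK. Sprouty proteins are induced by this signal and restrain it at the level of receptors, RAS and RAF, and SPRED proteins bring the RAS-inactivating protein neurofibromin to the membrane. The PEA3 factors ETV1, ETV4 and ETV5 are ETS transcription factors whose genes are switched on when ERK relieves repression by Capicua, the product of Cic. Sprouty, SPRED and PEA3 transcripts are therefore often read together as a gauge of ERK output in melanoma and other tumours.

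Library totals ran from 13540038 to 14710856 counts, and a gene with 0 counts in a library could still be present at up to 0.204 to 0.222 CPM, by counting error alone, where CPM is a count scaled to its library's total. Pigment cell markers identified the cells: the summed level of 8 genes (among them Pmel, Dct and Sox10) was 21383 to 22765 CPM in control and 26185 to 27745 CPM with fenofibrate, and 5 of the 8 rose while 0 fell. The 6 fibroblast markers summed to 23.2 to 26.3 CPM in control and 7.46 to 8.57 CPM with fenofibrate, and Col1a2 was the 1 of 2 tested that fell. Of 6 immune markers, Cd3e, Itgam, Adgre1 and Nkg7 had 0 counts in all 6 libraries. The immune sum was 0 CPM in every control and 0.591 to 0.696 CPM with fenofibrate, mostly from Ptprc, which had 6, 10 and 8 counts there. The endothelial markers Cdh5, Kdr and Tek had 0 counts throughout, and the endothelial list summed to 0.662 CPM at most. The 5 epithelial markers summed to 1.77 to 1.99 CPM in control and 1.29 to 2.22 CPM with fenofibrate, with Krt5 at 0. Whether the shifts in the pigment, fibroblast and immune sums have any part in the results was not tested.

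With fenofibrate, the members went in different directions within their own subfamilies. Spry2 rose 3.18-fold while its paralogs Spry1 and Spry4 fell, and Etv5 rose 1.35-fold while Etv1 and Etv4 fell. Spred2 fell slightly, no change of Spred1 passed the test, and Spred3 narrowly missed it. In all, 2 members rose, 5 fell and 2 were not called at an adjusted p of 0.05 (edgeR quasi-likelihood test, Benjamini-Hochberg adjustment over 13629 genes). The 5 falls include Etv4, which passed the filter on low counts through its controls only and could be tested only if it differed, so it adds no support to this count or to the median of the members. Over all genes tested 39.1% were called, 19.5% higher and 19.5% lower, so that a called gene is in itself common in this comparison. The groups did not overlap for 7 of the 9 members, 2 with higher and 5 with lower fenofibrate values. Etv4 is among these 5 and, by the same limit, adds no support to this count either. Of all genes tested, 53.3% had groups apart, 26.4% higher and 26.9% lower. With library totals in place of TMM scaling factors, 2180 genes were called higher and 3280 lower, against 2664 and 2662. Called changes of 2-fold or more were scarcer, at 5.56% of all genes tested, and Spry2 and Etv1 were among them, as was Etv4 with that limit. The median log2 fold change of the 9 members was -0.43, against -0.0021 over all genes tested. In bulk RNA, fewer cells that carry a transcript and less of it in each cell cannot be told apart.

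**Figure D1:**
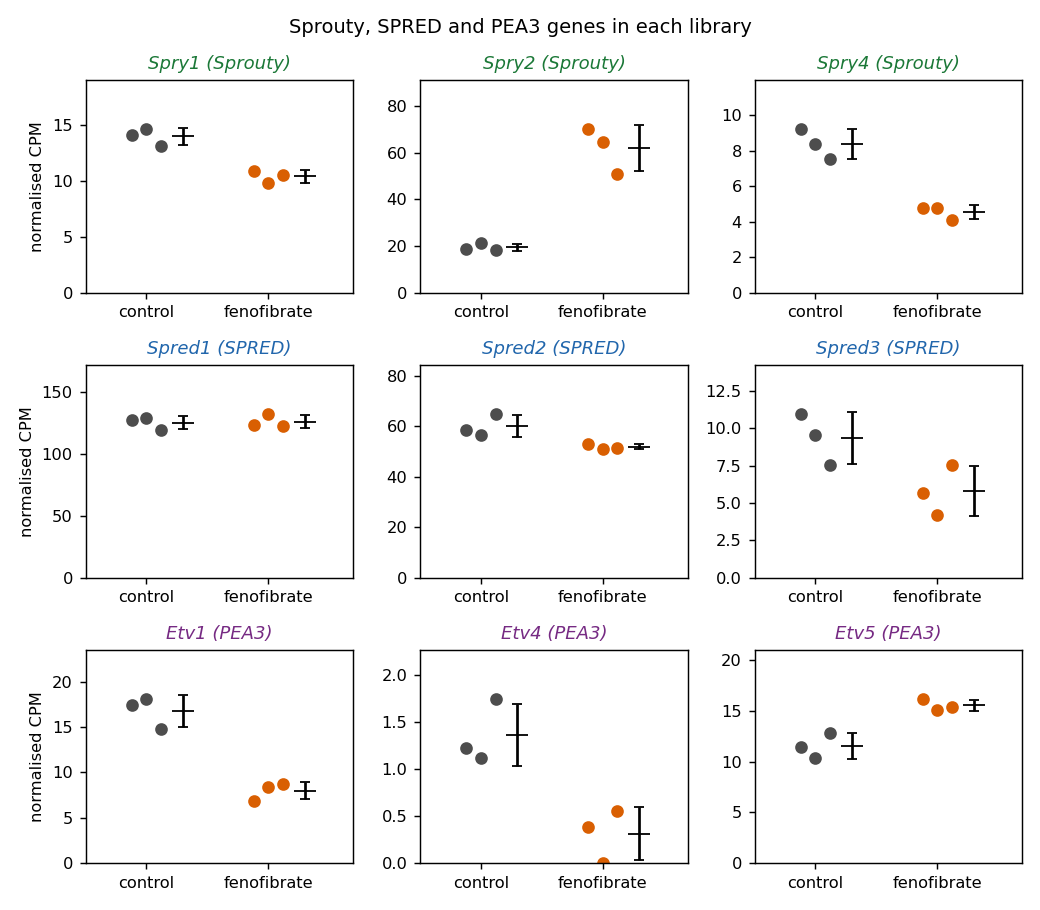
Level of each member in each library, in CPM scaled by TMM factors (vertical axes, each starting at 0), for control (grey) and fenofibrate (orange); dots are libraries and the bars beside them the mean and SD of 3. The groups are apart for Spry1, Spry2, Spry4, Spred2, Etv1, Etv4 and Etv5 and overlap for Spred1 and Spred3.

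Spry2 encodes a Sprouty protein that binds the ubiquitin ligase CBL and the adaptor GRB2. Control replicates 1 to 3 had 262, 303 and 252 counts of it, and fenofibrate replicates 1 to 3 had 929, 910 and 734. In CPM scaled by TMM factors (normalised CPM) these are 18.9, 21.1 and 18.3 against 70.1, 64.4 and 51.0. The lowest treated library was far above the highest control. The mean went from 19.4 ± 1.50 to 61.9 ± 9.84 normalised CPM (SD, n = 3 each), a log2 fold change of 1.67 ± 0.13 SE with a 95% interval from 1.37 to 1.96 (edgeR adjusted p = 8.94e-05). It ranked 177th among the rises of all 13629 genes tested. The gene, ENSMUSG00000022114, lies on the minus strand of chromosome 14 from 105891947 to 105896819 (GRCm38), has a single annotated transcript with 2 exons and overlaps no other annotated gene.

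Spry1, a close paralog that restrains the same receptors, was at 14.1, 14.6 and 13.1 normalised CPM in control and at 10.9, 9.77 and 10.6 with fenofibrate. All 3 treated libraries lay under all 3 controls, and the fall was 1.34-fold (log2 fold change -0.43 ± 0.10 SE, 95% interval -0.65 to -0.20, edgeR adjusted p = 0.0106). Its gene, ENSMUSG00000037211, lies on the plus strand of chromosome 3 from 37639947 to 37644598 (GRCm38). It shares 710 exonic bases with Gm42922 on the opposite strand, which had 0 to 4 counts per library. Spry4, which acts on RAS activation and RAF, was at 9.22, 8.37 and 7.54 normalised CPM in control and at 4.76, 4.75 and 4.10 with fenofibrate. The groups did not overlap, and Spry4 fell 1.85-fold (log2 fold change -0.89 ± 0.14 SE, 95% interval -1.21 to -0.56, edgeR adjusted p = 0.0022). Spry4 (ENSMUSG00000024427) is on chromosome 18. The remaining family gene, Spry3, is no member and had 0 counts in all 6 libraries.

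**Figure D2:**
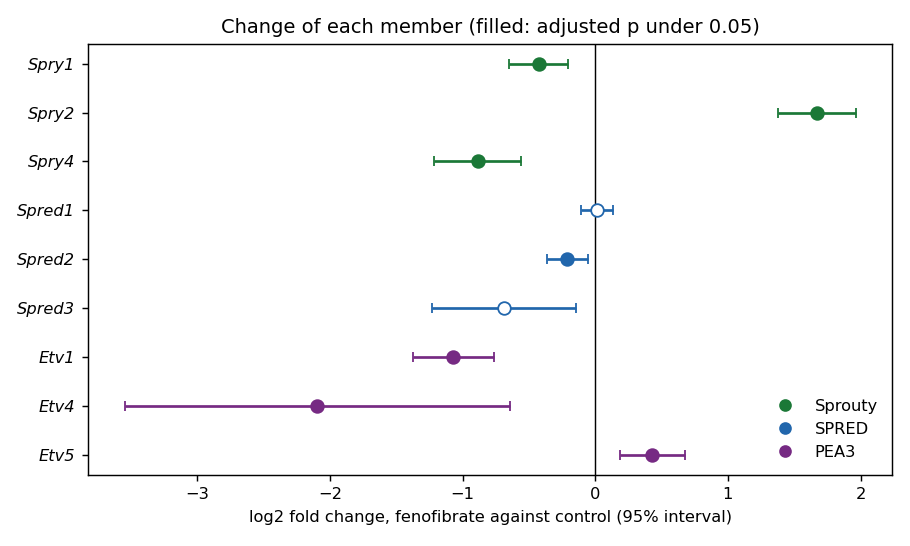
Log2 fold change of each member, fenofibrate against control (horizontal axis), with its 95% interval, for the Sprouty (green), SPRED (blue) and PEA3 (purple) genes; filled points passed an adjusted p of 0.05. Spry2 and Etv5 lie to the right of 0 and Spry1, Spry4, Spred2, Etv1 and Etv4 to the left, while the open points of Spred1 and Spred3 did not pass.

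Ratios of counts within a library do not depend on how libraries are scaled, and were added after the values were seen. The log2 ratio of Spry1 to Spry2 counts was -0.42, -0.53 and -0.48 in control and -2.69, -2.72 and -2.27 with fenofibrate, so the balance moved 4.25-fold towards Spry2. Spry2 against Spry4 moved 5.84-fold the same way. Of 7 pairs within subfamilies (Etv4 was left out for its low counts), 6 had ratios that did not overlap between the groups. Among all pairs of tested genes with counts in every library, 50% had ratios apart, so ratios that do not overlap are in themselves common here. Each of these 6 had p = 0.1 in a two-sided exact permutation test, the smallest that 3 against 3 can give, and an adjusted p of 0.117, so no pair could pass 0.05 in this design. The exception was Spred2 against Spred3 (exact permutation p = 0.2).

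The promoters of the Sprouty pair that moved apart, Spry2 and Spry1, and that of Spred3 are shown because they differ in the letters that ETS factors and Capicua are known to bind. Each line gives the 250 bases before the RefSeq start on GRCm38.p6, in the direction of transcription, with the ETS core (GGAA, or TTCC for the other strand) and any Capicua octamer in capitals. The windows are chr14:105896820-105897069 on the minus strand, chr3:37639697-37639946 on the plus strand and chr7:29168648-29168897 on the minus strand. The Spred3 window lies within its annotated gene, which begins at 29170411, so it precedes an inner start. Those of Spry2 and Spry1 lie outside their genes.
Spry2: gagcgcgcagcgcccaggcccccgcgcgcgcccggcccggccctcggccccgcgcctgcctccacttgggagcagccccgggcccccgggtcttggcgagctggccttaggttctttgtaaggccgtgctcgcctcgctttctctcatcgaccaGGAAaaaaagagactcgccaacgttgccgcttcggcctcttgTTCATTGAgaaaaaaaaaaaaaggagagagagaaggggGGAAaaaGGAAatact
Spry1: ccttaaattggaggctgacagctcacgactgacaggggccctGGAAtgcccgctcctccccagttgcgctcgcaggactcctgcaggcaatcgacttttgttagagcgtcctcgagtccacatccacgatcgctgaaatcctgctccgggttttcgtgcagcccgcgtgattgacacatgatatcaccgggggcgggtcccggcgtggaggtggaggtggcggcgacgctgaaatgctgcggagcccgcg
Spred3: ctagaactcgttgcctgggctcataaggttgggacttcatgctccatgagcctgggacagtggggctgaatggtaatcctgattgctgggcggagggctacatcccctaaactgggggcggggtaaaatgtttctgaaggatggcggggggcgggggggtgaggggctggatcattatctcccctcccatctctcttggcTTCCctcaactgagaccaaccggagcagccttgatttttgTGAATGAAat
The Spry2 stretch holds 3 ETS cores and the Spry1 stretch 1, against a median of 3 over all promoters, and both are 62.4% G and C where the median promoter has 52.4%. The octamers searched were TGAATGAA, TGAATGGA, TCAATGAA and TCAATGGA on both strands. Spry2 carries TTCATTGA, the reverse complement of TCAATGAA, 54 to 47 bases before its start, and Spred3 carries TGAATGAA 10 to 3 bases before its start. Of 32851 promoter windows of 300 bases, 3.84% hold any of the 4 octamers and 96% an ETS core, the octamers being separate from the core. RefSeq promoters were found for 7 of the 9 members, with 9 windows, 2 of which hold an octamer. Of the 2 genes with an octamer, Spry2 rose, and Spred3 had a log2 fold change of -0.69 that missed the threshold.

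The CRE core TGACG was found in 1 of the 9 windows (Spred2), where 20.8% of all promoters have it. The BMP SMAD element GGCGCC was found in 3 windows (Spred1, Spred2 and an Etv5 start), against 11.9% of all promoters. The AP-1 site TGANTCA (7.81% of promoters) and the CArG box of serum response factor (1.63%) were found in none. All were searched on both strands of the 300 bases that reach from 250 before to 50 after a start, and a match describes letters only.

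SPRED genes carry an EVH1 domain in addition to the Sprouty domain. Spred1, whose loss in people causes a neurofibromatosis-like syndrome, was the most counted member, with 1767, 1856 and 1645 counts in control and 1636, 1869 and 1771 with fenofibrate. Its levels of 127, 129 and 119 normalised CPM against 124, 132 and 123 overlapped. On the log2 scale the difference was 0.01 ± 0.05 SE (95% interval -0.11 to 0.13, edgeR adjusted p = 0.89), so changes beyond 0.926 to 1.10 times control lie outside the interval. The gene, ENSMUSG00000027351, lies on chromosome 2 from 117121374 to 117182279.

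Spred2, a paralog with the same action on RAS, was at 58.6, 56.5 and 64.8 normalised CPM in control and at 52.9, 51.1 and 51.4 with fenofibrate. The treated libraries lay just under the lowest control, and Spred2 fell 1.16-fold (log2 fold change -0.21 ± 0.07 SE, 95% interval -0.37 to -0.06, edgeR adjusted p = 0.0388). This call was lost without control replicate 1 or 3 or any 1 of the fenofibrate replicates (edgeR adjusted p from 0.0694 to 0.101), with DESeq2 (adjusted p = 0.0811) and without a filter on low counts (edgeR adjusted p = 0.069). The gene, ENSMUSG00000045671, lies on chromosome 11 from 19924375 to 20024026.

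Spred3, the least counted of the SPRED genes, was at 10.95, 9.55 and 7.54 normalised CPM in control and at 5.66, 4.18 and 7.57 with fenofibrate. The highest treated library just exceeded the lowest control. Its log2 fold change of -0.69 ± 0.23 SE (95% interval -1.23 to -0.14) missed the threshold with an edgeR adjusted p of 0.0508. Without control replicate 3 it was -0.82 (edgeR adjusted p = 0.0431), without fenofibrate replicate 3 it was -0.93 (0.0199), and DESeq2 called it (adjusted p = 0.033). It also passed with upper-quartile factors (edgeR adjusted p = 0.0443) and with library totals (0.0382). Spred3 (ENSMUSG00000037239, chromosome 7 from 29158829 to 29170411) shares 202 exonic bases with Ggn on the opposite strand, which had 1 to 12 counts per library.

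Among the PEA3 factors, Etv1 had 242, 259 and 203 counts in control and 91, 118 and 125 with fenofibrate. Its levels were 17.4, 18.1 and 14.7 normalised CPM against 6.87, 8.36 and 8.68. Every treated library was well under the lowest control, and Etv1 fell 2.10-fold (log2 fold change -1.07 ± 0.13 SE, 95% interval -1.37 to -0.77, edgeR adjusted p = 0.000684). ETV1 is a factor that some melanomas carry in extra copies. The gene, ENSMUSG00000004151, lies on chromosome 12 from 38779380 to 38870484 and overlaps no other annotated gene.

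Etv4, the PEA3 gene after which the subfamily is often named, was barely present, with 17, 16 and 24 counts in control and 5, 0 and 8 with fenofibrate. It entered the test only through the controls, since no treated library reached 10 counts, so a gene like it could be tested only if it differed. The fit gave a log2 fold change of -2.09 ± 0.62 SE, and its 95% interval was wide, from -3.55 to -0.64 (edgeR adjusted p = 0.0317). The call was lost without control replicate 1, 2 or 3 or fenofibrate replicate 1 (edgeR adjusted p from 0.0545 to 0.0936) and without a filter on low counts (0.0749). The value was -1.52 without fenofibrate replicate 2, the library with 0 counts. Etv4 (ENSMUSG00000017724) lies on chromosome 11 from 101769742 to 101785371.

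Etv5, whose product shares tasks with ETV4 in limb and kidney development, was at 11.5, 10.3 and 12.8 normalised CPM in control and at 16.2, 15.1 and 15.4 with fenofibrate. All treated libraries were above all controls, and Etv5 rose 1.35-fold (log2 fold change 0.43 ± 0.11 SE, 95% interval 0.19 to 0.68, edgeR adjusted p = 0.0145). With limma on unfiltered FPKM it missed the threshold (adjusted p = 0.0703). The log2 ratio of Etv1 to Etv5 counts went from 0.61, 0.81 and 0.20 to -1.23, -0.85 and -0.83, so Etv1 had the more counts in each control and Etv5 in each treated library. Etv5 (ENSMUSG00000013089) lies on chromosome 16 from 22381309 to 22439719.

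The upstream stretches of this second pair with opposite changes are shown for starts whose 250 bases contain no annotated exon. They are chr12:38779832-38780081 on the plus strand for Etv1 and chr16:22438369-22438618 on the minus strand for Etv5 (RefSeq, GRCm38.p6), with ETS cores in capitals. Both windows lie within the annotated genes, which begin at 38779380 (Etv1) and 22439719 (Etv5), so they precede inner starts.
Etv1: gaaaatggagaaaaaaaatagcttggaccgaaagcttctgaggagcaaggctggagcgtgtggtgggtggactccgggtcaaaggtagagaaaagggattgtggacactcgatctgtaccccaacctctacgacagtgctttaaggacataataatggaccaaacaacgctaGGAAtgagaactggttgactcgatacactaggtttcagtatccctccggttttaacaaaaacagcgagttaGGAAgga
Etv5: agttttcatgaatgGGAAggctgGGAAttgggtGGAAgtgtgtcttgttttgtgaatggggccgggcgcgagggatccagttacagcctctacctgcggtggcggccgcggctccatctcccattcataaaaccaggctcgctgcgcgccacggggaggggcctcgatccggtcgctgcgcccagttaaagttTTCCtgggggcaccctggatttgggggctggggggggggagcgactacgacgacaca
The Etv1 stretch holds 2 ETS cores and the Etv5 stretch 4. Neither holds a Capicua octamer among the 4 searched. Both genes have a second RefSeq start, with 1 core for Etv1 and 0 for Etv5, and the deposited gene counts do not separate starts.

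Levels of different genes can be compared only per length, here as FPKM (counts per kilobase of gene length, relative to the library total). In control the order by deposited FPKM was Spred1 (18.1 ± 0.825, SD, n = 3), Spry2 (9.48), Spred2 (8.72), Spry1 (4.27), Spry4 (1.86), Etv5 (1.65), Spred3 (1.27), Etv1 (0.776) and Etv4 (0.227). Libraries of neighbours in that order overlapped for Spry2 and Spred2, for Spry4 and Etv5, and for Etv5 and Spred3. With fenofibrate Spry2 led at 29.0 ± 4.62 FPKM, above the 17.5 ± 0.775 of Spred1 in every library. Etv5 (2.15) stood above Spry4 (0.968) there.

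The length behind the deposited FPKM equals the summed length of a gene's distinct exons for 8 of the 9 members, and is 1 (Spry2) to 1.96 (Etv4) times the merged exon length, apart from 0.965 for Spry4. With merged exon lengths, added after the data were seen, Spred2 in control was at 13.2 FPKM, above Spry2 at 9.48 in every library, and Etv5 at 2.86 was already above Spry4 at 1.79 in every library. The place of Spry2 above Spred1 with fenofibrate was the same (29.0 against 18.2).

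Summed over each subfamily, the Sprouty level went from 15.6, 16.7 and 14.5 FPKM in control to 37.1, 34.2 and 27.9 with fenofibrate. Spry2 made up 60.7% ± 1.43 of that sum in control and 87.7% ± 1.67 with fenofibrate (SD, n = 3 each), while Spry4 went from 11.9% ± 1.07 to 2.95% ± 0.201. The SPRED sum was 28.4, 28.2 and 27.5 FPKM against 25.2, 26.1 and 25.2. The PEA3 sum of 2.66, 2.51 and 2.80 FPKM in control overlapped with 2.59, 2.46 and 2.60 with fenofibrate. Within it, the share of Etv5 went from 62.1% ± 3.16 to 84.1% ± 2.17 and that of Etv1 from 29.4% ± 4.69 to 14.0% ± 1.87. These sums were given no test. They are relative to library totals, without the TMM factors of 1.015 to 1.022 in control and 0.9795 to 0.9839 with fenofibrate. Against control, the fenofibrate sums thus stand somewhat lower than TMM-scaled values would, which matters most for small differences such as that of SPRED.

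**Figure D3:**
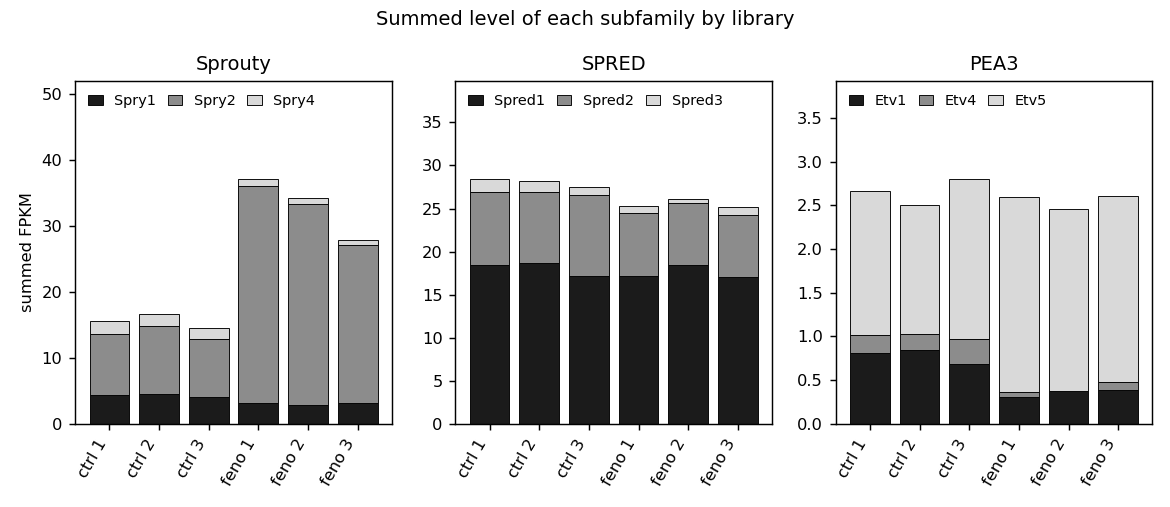
Summed deposited FPKM of the Sprouty, SPRED and PEA3 genes in each control (ctrl) and fenofibrate (feno) library, with each bar split by member. The Sprouty bars are higher in all 3 treated libraries and most of each is the Spry2 segment, and the PEA3 bars are of like height with a larger Etv5 segment.

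To see which genes shared these patterns, each member was compared with about 6060 named genes of at least 5 FPKM on average, by the root mean square difference of their centred log2 levels over the 6 libraries. The nearest to Spry2 were Rnd3 (0.05) and Ppp1r13b (0.08), with log2 fold changes of 1.61 and 1.61. The nearest to Etv1 were Ptma (0.07) and Gpr37 (0.10), and the nearest to Etv5 were Hspe1 (0.04) and Tmod1 (0.05). Spred2 was nearest to Elk3 (0.02), itself an ETS factor gene, and Spry1 to Kmt2b (0.02). With so many genes searched, near matches are to be found for most patterns, and for Etv4 the nearest gene, Csf1, was still 1.31 away. Without the minimum of 5 FPKM it was Pcdhb17 (0.68 away), at 0.416 FPKM on average.

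Other genes of the route were counted in 6 lists, which leave out the members. Of 17 tested partners and other feedback inhibitors, 5 rose, 3 fell and 9 were not called (median log2 fold change 0.07). Dusp5, an ERK phosphatase gene, rose 6.57-fold and Errfi1, an inhibitor of EGF receptors, 2.06-fold. Dusp5 had 13, 7 and 11 counts in control and 58, 86 and 61 with fenofibrate. It passed the filter on low counts only with the help of its fenofibrate libraries, so it adds no support to the count of rises or to the median. Dusp4 and Dusp6, ERK phosphatase genes named here after their values were seen, rose 1.59-fold and 1.38-fold. Dusp7 of the same list was not called (1.06-fold, edgeR adjusted p = 0.498), and Dusp9, with 6 to 14 counts per library, was not tested. Il17rd, a membrane inhibitor of FGF signalling, fell 2.17-fold and Nf1, the neurofibromin gene that SPRED proteins work through, 1.20-fold. Nf1 missed the threshold without control replicate 2 (edgeR adjusted p = 0.0501), and the other 5 called genes named here passed in every setting that gave a value. The shares called, 5 and 3 of 17, and those of the other lists can be read against all genes tested, of which 19.5% rose and 19.5% fell.

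Of 11 receptors and ligands tested, 4 rose, 4 fell and 3 were not called (median -0.11). The receptor gene Fgfr3 rose 8.17-fold and Hbegf, which encodes a ligand of EGF receptors, 4.69-fold, while the receptor genes Kit and Pdgfrb fell 3.12-fold and 1.80-fold. Of 27 adaptors and genes of RAS, RAF, MEK and ERK, 9 rose, 6 fell and 12 were not called (median -0.06). The RAS relative Rras2 rose 2.00-fold and Shoc2, which helps to activate RAF, 1.87-fold. The scaffold genes Ksr1 and Gab1 fell 2.54-fold and 1.59-fold.

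Of 13 other ETS factors tested, 3 rose, 2 fell and 8 were not called (median 0.05). Elf1 rose 2.72-fold and Erf, a repressor that ERK exports from the nucleus, 2.21-fold, while Etv6 and Elk3 fell 1.45-fold and 1.19-fold. The call of Elk3 was lost with DESeq2 (adjusted p = 0.0577) and without control replicate 3, fenofibrate replicate 2 or fenofibrate replicate 3 (edgeR adjusted p from 0.0537 to 0.0680), which leaves 1 fall. Of 11 regulators of the PEA3 factors, 3 rose, 0 fell and 8 were not called with edgeR (median 0.05). At an unadjusted p under 0.05, 2 were lower, and the fit with a replicate block called 2 lower. DESeq2, upper-quartile factors, library totals, every limma fit on FPKM and the fit without fenofibrate replicate 2 each called 1 lower. Cic, the gene of the Capicua repressor and named here after its value was seen, rose 1.26-fold (edgeR adjusted p = 0.0012). Its partner gene Atxn1 rose 1.33-fold and the pseudokinase gene Trib1, which works with the ubiquitin ligase COP1, 2.53-fold, and Atxn1 passed in 9 of 18 settings.

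Of 14 other genes that report ERK output, 10 rose, 2 fell and 2 were not called (median 0.49). Over all genes tested, 19.5% rose and 19.5% fell, with a median of -0.0021. This list, like the others, was chosen with earlier results of these data known, so its count is no test of ERK output. A count of 10 rises was kept only with RLE scaling factors, upper-quartile factors and a filter of at least 1 CPM in 3 libraries. Every other setting called fewer: 8 at most, as with DESeq2 and library totals, and 5 at least, with unfiltered limma on FPKM. The fits without control replicate 1 or 3 and limma at a pseudocount of 0.1 called 6 each. Among the 10, Epha4 passed in 5 of 18 settings, Myc in 6, Ier3 in 7 and Egr1 in 9. Maff, a small MAF factor gene, rose 13.6-fold and Fos 3.88-fold, while the cyclin gene Ccnd1 fell 2.04-fold. Elk3, which stands in this list too, was the other fall, and was lost in the same 4 settings as above. Etv3, among the 10 rises, also stands in both lists.

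**Figure D4:**
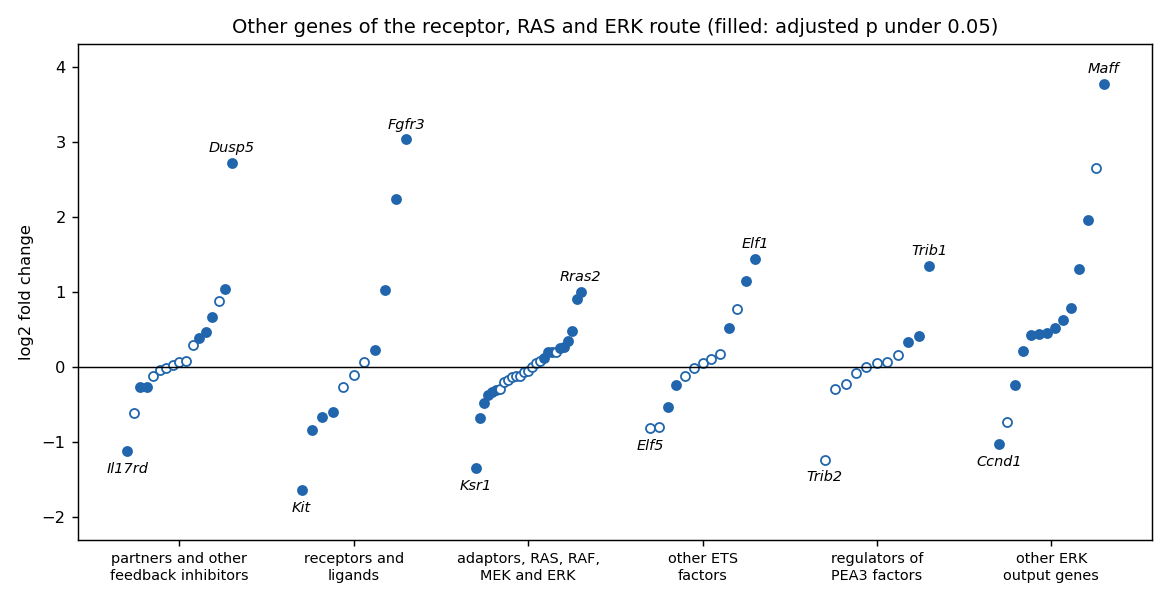
Log2 fold change, fenofibrate against control (vertical axis), of every tested gene in the 6 lists, ordered by size within each list; filled points passed an adjusted p of 0.05, and the lowest and highest gene of each list are named. Each list has points on both sides of 0, with the highest values at Maff, Fgfr3 and Dusp5. Dusp5 passed the filter on low counts only with the help of its fenofibrate libraries.

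**Figure D5:**
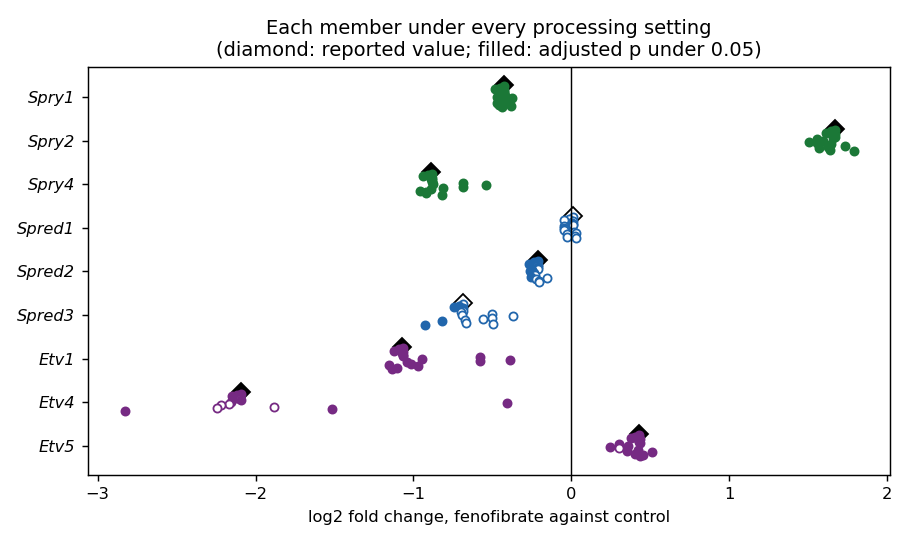
Log2 fold change of each member (horizontal axis) under the reported setting (diamond) and the alternatives (dots); filled symbols passed an adjusted p of 0.05. Spry1, Spry2, Spry4 and Etv1 are filled throughout and Spred1 is open throughout, while Spred2, Spred3, Etv4 and Etv5 hold both kinds.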

How the data were processed

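Libraries of mRNA-enriched total RNA were sequenced in 6 samples, grouped by title. The authors deposited raw counts for each gene beside FPKM values of their own. The submitters' processing notes name HISAT2 2.0.4, StringTie 1.3.0 and GRCm39, with no roles. The counter and strand setting are not given in the sources used here, so counts of overlapping genes can be mixed. Gene positions match GRCm38: GENCODE M21 holds 99.95% of the IDs, with identical start and end for 98.75% of them. Genes were filtered with filterByExpr (minimum count 10), scaled by TMM and tested with glmQLFit and glmQLFTest in edgeR 4.0.16 (R 4.3.3), with no covariate. The SE is the log2 fold change over the square root of F. The fitting script was first run on simulated counts, whose outcome is not used here. Alternatives used DESeq2 1.42.0, limma 3.58.1 on FPKM, other scalings and filters, a replicate block and each replicate left out. The members and lists were chosen with earlier results of these data known. All members were named, and beside them at most 2 called rises and 2 called falls per list, the largest ones. Dusp4, Dusp6, Dusp7, Dusp9 and Cic were added after their values were seen. Nearest patterns used log2 CPM with a prior count of 0.5, leaving out provisional symbols. Taken over genes together, replicate libraries differed by more than sampling noise (chi-square per degree of freedom 7.63 to 9.52). Genes with very uneven counts can weigh heavily in this sum, so it does not give the spread of a usual gene.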

Additional observations from a re-analysis of the deposited data

How the results depend on the processing

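Over 18 settings, the reported one included, Spry1 (log2 fold change -0.48 to -0.38), Spry2 (1.51 to 1.79), Spry4 (-0.96 to -0.54) and Etv1 (-1.15 to -0.39) kept their direction and passed the threshold in all. The FPKM fits gave the smallest sizes for Etv1 (-0.39 with a pseudocount of 1), since a pseudocount understates low genes. Etv5 passed in 17 and missed with limma on unfiltered FPKM (0.30, adjusted p = 0.0703). Spred1 passed in none and changed sign in 8: -0.0123 with upper-quartile factors, -0.0441 with library totals only, -0.0429, -0.0438, -0.0418 and -0.0429 with limma at pseudocounts of 0.5, 0.1, 1 and 0.5 without a filter, and 2 of the 6 fits with a replicate left out, which ranged from -0.0244 to 0.0325. The log2 ratio of its group means was -0.0442 on deposited FPKM and on CPM of library totals. Spred2 passed in 10 and missed with DESeq2 (-0.21, adjusted p = 0.0811), without a filter (-0.21, 0.069) and in 5 of 6 fits with a replicate left out, the 6 ranging from -0.25 to -0.15. Spred3 passed in 5: upper-quartile factors (-0.71), library totals only (-0.74), DESeq2 (-0.69) and the fits without control replicate 3 or fenofibrate replicate 3, in a range from -0.93 to -0.50 over the 6. Etv4 had a value in 15 and passed in 10. It missed without a filter (-2.10, edgeR adjusted p = 0.0749) and in 4 of 6 fits with a replicate left out, the 6 ranging from -2.83 to -1.52. Its smallest size was -0.40 with limma on unfiltered FPKM (adjusted p = 0.0284). It had too low an FPKM for the filtered limma fits. With the replicate number as a block, Spred2 missed (-0.21, adjusted p = 0.0703), no other member's call changed, and 4540 genes were called against 5326. Deviations from the group means, taken over genes together, correlated at 0.0203, 0.0097 and -0.0227 for same-numbered libraries. For different-numbered libraries the correlations ran from -0.0286 to 0.0184. No pairing by number was thus seen over genes together, and a pairing limited to some genes was not tested. Among the other scalings, library totals moved the median of all genes most, from -0.0021 to -0.0568. The number of counts limits Etv4. Spred3 had more counts than Spry4 (393 against 352 in control, 243 against 189 with fenofibrate) and a larger SE (0.23 against 0.14).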

Other observations

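Some genes of the same route, singled out with their values in view, had uneven counts among libraries of 1 group. Kctd12, listed among the genes that report ERK output, had 938, 0 and 0 counts in control and 1949, 2129 and 1781 with fenofibrate (edgeR adjusted p = 0.151). The RAS gene Nras had 1582, 554 and 433 counts in control and 574, 1782 and 599 with fenofibrate (edgeR adjusted p = 0.815). The ETS gene Ets1 had 9111, 9527 and 2612 counts against 2210, 7466 and 2489 (edgeR adjusted p = 0.306), and Rasal2, a RAS inhibitor gene, 131, 445 and 342 against 127, 360 and 410 (edgeR adjusted p = 0.963). Apart from Etv4, with 5, 0 and 8 counts with fenofibrate, no member was spread in this way: the highest library of a group was under 2 times its lowest.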
